A study of Mus musculus with 4 samples.

Results

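The genes described here encode 9 transcription factors and cofactors that build and maintain skeletal muscle: the myogenic basic helix-loop-helix factors Myod1, Myog, Myf5 and Myf6, the MEF2 factors Mef2a, Mef2c and Mef2d, the coactivator Eya1, and the paired-box factor Pax7. They were given as a fixed set, and every probe set annotated to exactly 1 of these symbols was taken, including dim ones. That gave 18 probe sets for the 9 genes, out of 12393 genes with a probe set of their own symbol. RNA came from the gastrocnemius, a mostly fast-fibre calf muscle, of mice at 6 weeks of age. There were 2 arrays of wild-type, non-transgenic littermates (the controls) and 2 of transgenic MCK-PPARb mice that overexpress PPARbeta (gene Ppard) specifically in muscle. MCK stands for muscle creatine kinase, whose regulatory region is active in differentiated muscle fibres, so a transgene driven by it is not directed to the other cells of the muscle. Neither strain nor sex is given in the sources used here. Each array is labelled a biological replicate, and each array was taken here as 1 mouse, though the design text can also be read as repeat arrays of the same animals. The p-values cover only how far these samples lie apart, and that spread may be technical.

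Myod1 and Myf5 commit cells to the muscle lineage, and Myog and Myf6 act in differentiation and in the fibre. All of them pair with E-proteins and bind the E-box, a short DNA motif. The MEF2 factors are MADS-box proteins that bind A/T-rich sites, often next to E-boxes, and their activity in adult fibres is set by calcium signals and by class II histone deacetylases. Eya1 is a coactivator that does not bind DNA by itself, and Pax7 marks satellite cells, the stem cells of muscle. Whole muscle was measured, so for genes of rare cells, fewer cells and less RNA per cell cannot be told apart.

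The proximal promoter of Myog is shown because it is a textbook meeting point of these factors, and Myog had the greatest difference of the 9 genes, and that of Mef2d because Mef2d had the smallest p. Both are the 250 bases before the annotated start, from RefSeq (GRCm38.p6), printed 5′ to 3′ on the gene's strand, with Myog at chr1:134289754-134290003 (+ strand) and Mef2d at chr3:88142122-88142371 (+ strand). Capitals mark matches to 3 motifs searched on both strands: the E-box CANNTG, the core TATTTAT of a MEF2 site, and TCAGGTT of a MEF3 site. The last 2 were written from the known Myog sites, so their presence there is no independent result.
Myog: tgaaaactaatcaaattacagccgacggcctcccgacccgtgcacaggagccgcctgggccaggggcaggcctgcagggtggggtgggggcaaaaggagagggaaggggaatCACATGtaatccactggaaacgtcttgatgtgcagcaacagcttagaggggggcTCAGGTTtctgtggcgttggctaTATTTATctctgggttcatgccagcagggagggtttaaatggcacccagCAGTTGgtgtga
Mef2d: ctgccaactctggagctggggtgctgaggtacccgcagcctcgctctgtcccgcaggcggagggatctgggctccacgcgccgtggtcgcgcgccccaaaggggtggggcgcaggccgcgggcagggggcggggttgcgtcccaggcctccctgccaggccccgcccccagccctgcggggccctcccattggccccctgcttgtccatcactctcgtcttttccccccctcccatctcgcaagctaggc
In the Myog window the E-boxes begin 138 and 12 bases before the start, the MEF3 match 84 bases and the MEF2 match 61 bases before it, and no match overlaps another. Of 32851 promoter windows of this length, 66.2% held an E-box, 5.17% the MEF2 core, 3.49% the MEF3 motif and 0.137% all 3. None of the 3 motifs was in the Mef2d window. Promoter windows were found for 6 of the 9 genes. A match is a description of the letters only.

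Ppard, the transgene, was 45.1-fold higher on the MCK-PPARb arrays (log2 5.49 ± 0.22 SE; limma, adjusted p = 0.000187), the direction the labels give. Markers of mature fibres were bright on all arrays, with all 9 of 9 above the filter level of 444 signal units. Their median log2 difference, MCK-PPARb minus non-transgenic, was -0.32. Of the 9, 1 was positive, and none had an adjusted p under 0.05 (limma). The median signal of an array ran from 431 to 513. Non-transgenic replicate 1 was brighter for abundant fibre genes: the summed signal of the 9 fibre markers was 1731480 there, 975688 on non-transgenic replicate 2, and 1129051 and 1006805 on the MCK-PPARb arrays. Differences below are MCK-PPARb minus non-transgenic on the log2 scale. Signals of different probe sets were compared only to filter and to choose the brightest of a gene. The marker sums also add them, so bright probe sets weigh most there.

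No gene of the 9 passed the test over all probe sets (limma, adjusted p under 0.05), and 1, Mef2d, had an unadjusted p under 0.05. Over all 6841 genes above the filter, 0.731% passed (0.409% higher and 0.322% lower in MCK-PPARb muscle) and 10.9% had an unadjusted p under 0.05. Without a filter the 9 genes again gave 0 calls and 1 unadjusted p under 0.05, against 0.428% and 8.09% of all 12393 genes. The filter kept 6 of the 9 genes and 14 of their 18 probe sets; Myf5, Eya1 and Pax7 lay below it. The 9 differences had a median of 0.29, with 6 positive and 3 negative, against a median of 0.046 over all 12393 genes, of which 53.8% were positive (51.2% of those above the filter). The groups did not overlap for 4 of the 9 genes, Myog, Myf5, Mef2a and Mef2d, each higher in MCK-PPARb muscle, and 38.2% of all genes did not overlap, 20.9% in that direction and 17.2% in the other (42.9% of the genes above the filter, either way). Of the 18 probe sets, 5 did not overlap, against 36.6% of all probe sets with 1 symbol. With so few arrays, the smallest p that an exact permutation test allows for 1 gene is 0.333. So the share of genes without overlap, counted either way, was close to that of the whole array. Counted in the higher direction alone it was 44.4% against 20.9%, for 9 genes chosen with earlier results known. With 2 arrays per group a missed threshold does not show that a gene did not differ. The smallest difference of any called gene was 1.15 on the log2 scale and a call needed an unadjusted p of at most 0.0003, while the differences of the 9 genes were all under 1 in size.

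**Figure D1:**
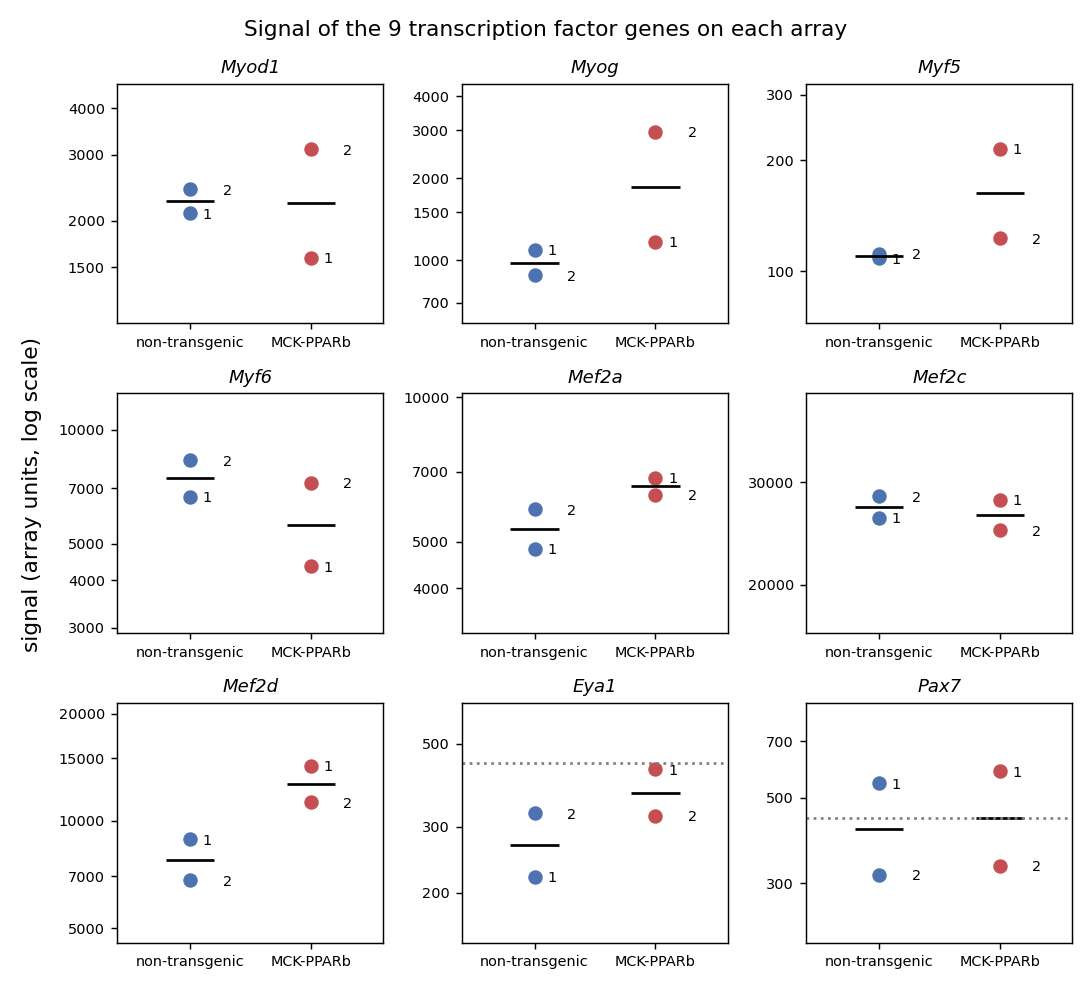
Signal (array units, log scale, each panel with its own range) of the 9 genes on each array, by the probe set of highest mean; points are arrays numbered by replicate, bars are geometric means of 2 arrays and the dotted line is the filter level, drawn where it falls in range. Mef2d is higher on both MCK-PPARb arrays, and Myod1, Myog and Myf6 are each higher on MCK-PPARb replicate 2 than on replicate 1.

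Among the myogenic helix-loop-helix factors, Myog, which drives the terminal differentiation of myoblasts and is known to rise after denervation, read 1092 and 882 on the control arrays and 1169 and 2964 on the transgenic arrays. Both transgenic arrays lay above both controls, but replicate 1 only by a small margin. The difference was 0.92 ± 0.43 (SE over 2 arrays per group; limma, adjusted p = 0.514), with a 95% interval of -0.082 to 1.93. Without MCK-PPARb replicate 2 it was 0.25 and without MCK-PPARb replicate 1 it was 1.59, so its size rests on a single array.

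Myod1, the factor that can turn fibroblasts into muscle cells, read 2094 and 2426 on the control arrays and 1590 and 3110 on the transgenic arrays. The control values lay between the transgenic ones. The difference was -0.020 ± 0.33 (adjusted p = 0.989), with a 95% interval of -0.80 to 0.76, which holds changes of up to 1.69-fold upward. Its sign turned without MCK-PPARb replicate 1 (0.46) and without non-transgenic replicate 2 (0.086).

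Myf6, also called MRF4 and the main factor of this family in adult fibres, read 6650 and 8314 on the control arrays and 4354 and 7233 on the transgenic arrays. The groups overlapped, and the lowest value was that of MCK-PPARb replicate 1. The difference was -0.41 ± 0.27 (adjusted p = 0.662; 95% interval -1.05 to 0.23), and it was -0.040 without MCK-PPARb replicate 1 and -0.77 without MCK-PPARb replicate 2.

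Myf5, an early factor of the lineage found in adult muscle mainly in satellite cells, was dim, at 109 and 112 on the control arrays and 215 and 123 on the transgenic arrays. Both transgenic values exceeded the controls, all far under the filter level. In the fit without a filter its difference was 0.56 ± 0.85 (adjusted p = 0.941), and it was 0.16 without MCK-PPARb replicate 1 and 0.96 without MCK-PPARb replicate 2.

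Among the MEF2 factors, Mef2d, which together with Mef2a and Mef2c activates muscle structural and metabolic genes, had the smallest p of the 9 genes. Its brighter probe set, 1434487_at, read 8867 and 6816 on the control arrays and 14256 and 11261 on the transgenic arrays. Both transgenic arrays stood above both controls, and in each group replicate 1 was the higher. The difference was 0.70 ± 0.22 (1.63-fold, 95% interval 1.15-fold to 2.32-fold, unadjusted p = 0.0132), and it did not pass over all probe sets (adjusted p = 0.288). The other probe set, 1421388_at, read 4340 and 1527 against 3515 and 2016, a difference of 0.048 ± 0.49 (adjusted p = 0.983). Both transgenic values lay between the controls, which were far apart, so the 2 probe sets of Mef2d did not give the same picture. With the mean of both probe sets the difference was 0.38 (adjusted p = 0.731).

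Mef2a has 5 probe sets, and all gave positive differences, from 0.25 to 0.40. The probe set that represents it, 1452347_at, read 4842 and 5846 on the control arrays and 6793 and 6271 on the transgenic arrays. The groups did not overlap, and the gap between them was narrower than the gap within the transgenic pair. The difference was 0.29 ± 0.19 (adjusted p = 0.658; 95% interval -0.16 to 0.75), and it was 0.16 without non-transgenic replicate 1 and 0.43 without non-transgenic replicate 2. A second one, 1427185_at, annotated to the same source sequence, read 4223 and 5693 against 5834 and 5800 (0.25 ± 0.21), also without overlap. The other 3 overlapped between groups. As several of these probe sets read the same transcript sequence, their shared sign is not independent evidence.

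Mef2c, the MEF2 factor known to support sarcomere integrity and slow fibre genes, also has 5 probe sets. The brightest, 1424852_at, read 26038 and 28375 on the control arrays and 27991 and 24800 on the transgenic arrays. These ranges overlapped and all 4 values were close together. Its difference was -0.045 ± 0.18 (adjusted p = 0.958), with a 95% interval of -0.47 to 0.38, or 0.724-fold to 1.30-fold. The other 4 probe sets had differences of 0.23 to 0.38, all overlapping between groups, with adjusted p from 0.730 to 0.822. Thus the sign for Mef2c depends on the probe set, and with the mean of its probe sets the difference was 0.23 (adjusted p = 0.776). It also turned without non-transgenic replicate 2 (0.017) and without MCK-PPARb replicate 2 (0.042).

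**Figure D2:**
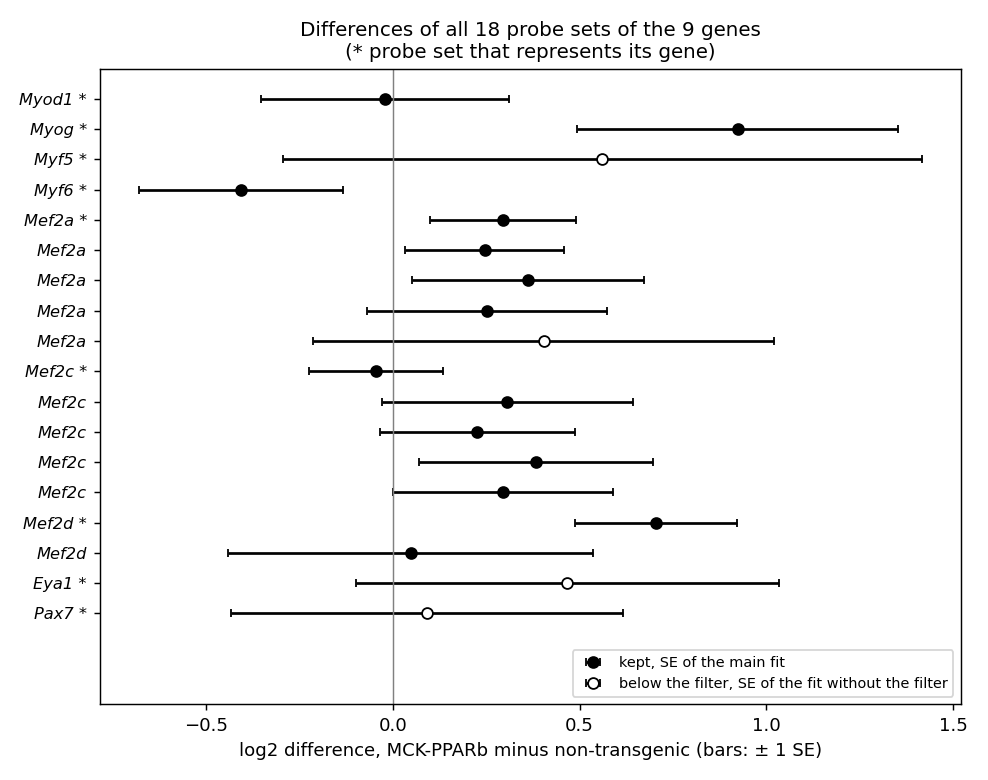
Log2 differences, MCK-PPARb minus non-transgenic, of the 18 probe sets of the 9 genes (points) with ± 1 SE (bars), from 2 arrays per group; open points lie below the filter and take their SE from the fit without it. Of the 18 differences 15 are positive and 3 negative, and none passed the test; Mef2d and Mef2c each have probe sets that differ from one another.

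Eya1, a transcriptional coactivator with phosphatase activity, read 220 and 326 on the control arrays and 428 and 321 on the transgenic arrays. The groups overlapped, since the higher control just exceeded the lower transgenic value. In the fit without a filter the difference was 0.47 ± 0.57 (adjusted p = 0.917), and with an array left out it ran from 0.18 (non-transgenic replicate 1) to 0.75 (non-transgenic replicate 2), with 0.26 without MCK-PPARb replicate 1. Pax7 read 544 and 315 on the control arrays and 585 and 333 on the transgenic arrays. Replicate 1 was the higher in both groups, by a wider margin than that between the group means. The difference was 0.092 ± 0.52 (adjusted p = 0.987, no filter). It was -0.30 without non-transgenic replicate 2 and -0.31 without MCK-PPARb replicate 1, 0.49 without non-transgenic replicate 1 and 0.50 without MCK-PPARb replicate 2, so its sign depends on the arrays. It was also negative under quantile normalization (-0.0092) and median centring (-0.014). These are single, dim probe sets, and their intervals hold large changes in both directions.

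The arrays of the MCK-PPARb group differed from each other in opposite ways for the MEF2 genes and for 3 of the 4 helix-loop-helix genes. Myod1, Myog and Myf6 were higher on replicate 2 than on replicate 1, by 1.96-fold, 2.53-fold and 1.66-fold. Of all genes above the filter, 4.25% were higher there by 0.7 or more on the log2 scale, a mark set after these values were seen. All 12 MEF2 probe sets were higher on replicate 1, by 1.01-fold to 2.13-fold, against 48.6% of the kept probe sets with 1 symbol and 56% of all of them; the 12 belong to 3 genes and share target sequence. Myf5, Eya1 and Pax7, all dim, were higher on replicate 1 as well. On the non-transgenic arrays, replicate 2 over replicate 1 was 1.16-fold for Myod1, 0.808-fold for Myog and 1.25-fold for Myf6. These gaps are a description of single arrays and carry no test.

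**Figure D3:**
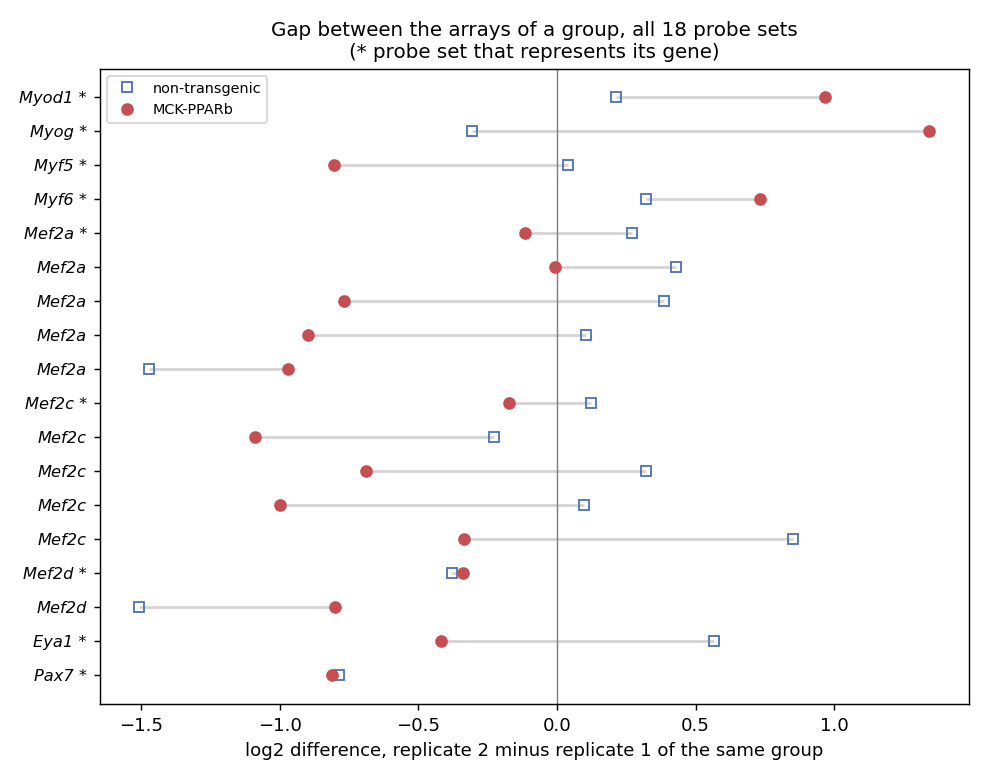
Gap between the arrays of a group, as log2 of replicate 2 minus replicate 1, for the 18 probe sets of the 9 genes; squares are the non-transgenic pair and circles the MCK-PPARb pair. In the MCK-PPARb pair Myod1, Myog and Myf6 lie to the right of 0 (0.97, 1.34 and 0.73), and the 12 MEF2 probe sets lie to the left.

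The genes whose profile over the 4 arrays was most like that of Mef2d, by the sum of squared differences of centred log2 signals over the kept genes, were Lmna, which encodes the nuclear lamins A and C (0.0021), Hif3a, a hypoxia-inducible factor subunit (0.0041), and Bin1, a membrane-shaping protein of the T-tubules (0.0059). Lmna read 4223 and 3224 against 6645 and 5148, Hif3a 621 and 493 against 1049 and 835, and Bin1 24014 and 19644 against 39215 and 32301. Their differences were 0.66 for Lmna, 0.76 for Hif3a and 0.71 for Bin1, and none passed (limma, adjusted p of 0.348, 0.462 and 0.243). A second kept probe set of Lmna was at 0.57, and its probe sets below the filter were at -0.26 and -0.97. Below the filter, a second probe set of Bin1 was at -0.51, and those of Hif3a were at -0.64 and 0.82. Such likeness over 4 arrays describes these arrays only.

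Genes that work with these factors were taken from 8 lists, without the 9 genes themselves. Of 145 listed genes, 134 had a probe set, 95 lay above the filter and 5 passed (limma, adjusted p under 0.05), 4 higher and 1 lower in MCK-PPARb muscle. That is 5.26% of the kept list genes, against 0.731% of all kept genes; several of the 5 were known from earlier results of these data when the lists were written. The count fell to 2 without MCK-PPARb replicate 1 and 3 without MCK-PPARb replicate 2, and was 8 and 11 without non-transgenic replicates 1 and 2. It was 2 without the intensity trend and 12 with a replicate block.

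Of the targets of the myogenic helix-loop-helix factors, 18 were kept, 3 rose, 1 fell and 14 did not pass. In limma 8 of the 18, the 4 called ones among them, reached an unadjusted p under 0.05, against 10.9% of all kept genes. The list was written with earlier results of these data known. The list's median was 0.014 against 0.011 over all kept genes, and over all 23 on the array it was 0.074. Not called among the 8 were Chrna1 (1.31), Myh8 (1.19), Tnni1 (1.10) and Mybph (-0.88). Myh3, a myosin heavy chain gene, lay below the filter, with dim controls. It read 59.9 and 182.5 on the control arrays and 1200.7 and 1560.8 on the transgenic arrays (3.71). Also below the filter, Tnnt2 was at 1.07 and Mymk at -0.70. Cdkn1a, the cell cycle inhibitor p21, read 2079 and 1256 on the control arrays and 17252 and 19850 on the transgenic arrays (3.52 ± 0.27, adjusted p = 0.00218), and its other probe set was at 3.38 (adjusted p = 0.0939). Cdkn1c, the inhibitor p57, rose from 6646 and 4765 to 21070 and 16234 (1.72 ± 0.23, adjusted p = 0.0299). Lmod2, a leiomodin that lengthens thin filaments, rose from 6273 and 7303 to 18967 and 18358 (1.46 ± 0.18, adjusted p = 0.0205). Actc1, cardiac alpha-actin, fell from 149762 and 69947 to 3228 and 6023 (-4.54 ± 0.41, adjusted p = 0.00562). In each of these the groups stood far apart, and the called members went in both directions. Cdkn1a and Actc1 passed in all 16 alternatives run. Without MCK-PPARb replicate 1 the list had 2 calls, as Cdkn1c (adjusted p = 0.0966) and Lmod2 (0.0937) were lost, and Lmod2 was also lost without MCK-PPARb replicate 2 (0.0928). There were 2 calls without the intensity trend too, and 7 both without non-transgenic replicate 2 and with the replicate block. Leaving out non-transgenic replicate 1 gave a list median of 0.28, against -0.23 without non-transgenic replicate 2.

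Acetylcholine receptor subunit genes, classic targets of Myog and Myod1, are part of that list. Chrna1, the alpha subunit, read 1369 and 1240 on the control arrays and 3362 and 3100 on the transgenic arrays (1.31 ± 0.22, adjusted p = 0.0606), so it did not pass, although its groups stood clearly apart. It passed in 7 of 16 alternatives, 1 of them the looser threshold of 0.1, and others the replicate block (adjusted p = 0.0046), robust eBayes (0.0481) and without non-transgenic replicate 1 (0.0433), and its adjusted p was 0.285 without MCK-PPARb replicate 1. It was about as high on both transgenic arrays, unlike Myog. Named after their values were seen, Chrng and Chrnd, the gamma subunit of fetal receptors and the delta subunit, were dim. Chrng read 47.9 and 51.6 against 82.9 and 312, and Chrnd 35.0 and 21.1 against 151 and 54.2. Chrng was highest on MCK-PPARb replicate 2, the array on which Myog was highest, and Chrnd on replicate 1. All values of Chrng and Chrnd lay under the filter level, and a link of receptor genes to Myog was not tested. Chrnb1, the beta subunit, read 1572 and 1085 against 1070 and 1521 (-0.034, adjusted p = 0.982). Chrne, the epsilon subunit of adult receptors, read 945.8 and 786.9 against 590.3 and 524.5, lower without overlap (-0.63, adjusted p = 0.541). Ckm, the muscle creatine kinase gene and a model target of Myod1 and MEF2, had a difference of -0.34 ± 0.36 (adjusted p = 0.806).

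Of the targets of MEF2 factors, 18 were kept, 1 rose, 0 fell and 17 did not pass. In limma 6 of the 18 reached an unadjusted p under 0.05, against 10.9% of all kept genes. Hspb7, a small heat shock protein of heart and muscle, rose from 9096 and 13307 to 32943 and 28473 (1.48 ± 0.23, adjusted p = 0.0471), and its other 2 probe sets were at 1.53 and 1.57. Ppargc1a, the metabolic coactivator PGC-1alpha, which MEF2 activates and binds, read 2495 and 2450 against 2541 and 2224 (-0.057 ± 0.21, adjusted p = 0.953). The call of Hspb7 was lost without MCK-PPARb replicate 1 (adjusted p = 0.174), without MCK-PPARb replicate 2 (0.117), without the intensity trend (0.204) and with the mean of its probe sets (0.108). Calls in the list numbered 0 without MCK-PPARb replicate 1, 0 without MCK-PPARb replicate 2, 0 without the trend, 3 and 4 without non-transgenic replicates 1 and 2, and 5 with the replicate block. The list's median was -0.082, and it became positive under quantile normalization (0.038) and when non-transgenic replicate 1 (0.056) or MCK-PPARb replicate 1 (0.0072) was left out.

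Among regulators of MEF2 activity, which include class II histone deacetylases, calcineurin subunits and calcium/calmodulin-dependent kinases, none of 15 kept genes passed in limma, where 3 reached an unadjusted p under 0.05, and the list's median was -0.11. Camk2g, a calmodulin kinase subunit, read 14698 and 11077 on the control arrays and 7573 and 8935 on the transgenic arrays (-0.63 ± 0.21, adjusted p = 0.332). Its other probe set was at -0.35. Ppp3r1, the regulatory subunit of calcineurin, read 11983 and 14005 against 9159 and 8926 (-0.52 ± 0.18, adjusted p = 0.349), while its other probe set was at 0.37. Over the 15 genes the median became -0.40 when MCK-PPARb replicate 1 was left out, 0.19 when MCK-PPARb replicate 2 was, and 0.18 when non-transgenic replicate 1 was.

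Of the E-protein partners and inhibitors, none of 11 kept genes passed or had an unadjusted p under 0.05 in limma. Their median was 0.29, with 9 positive. Tcf12, the E-protein HEB, read 2253 and 2275 against 2870 and 3262 (0.43 ± 0.21, adjusted p = 0.521), with its other probe set at 0.13. Hes1, a repressor downstream of Notch, read 628 and 1053 against 781 and 2122 (0.66 ± 0.50, adjusted p = 0.703).

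In the list of Eya, Dach, Pax and related genes, 3 of 9 on the array were kept, and none passed or had an unadjusted p under 0.05 in limma. Six4 read 1444 and 1554 against 1769 and 2311 (0.43, adjusted p = 0.593), and Eya3 1137 and 795 against 1497 and 1015 (0.37, adjusted p = 0.749). Other probe sets were at 0.57 for Six4, below the filter, and at 0.19 for Eya3. The 3 kept genes had a median of 0.37, and 0.095 without MCK-PPARb replicate 1, 0.12 without non-transgenic replicate 2 and 0.24 without MCK-PPARb replicate 2.

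Of satellite cell and myoblast genes, none of 13 kept genes passed or had an unadjusted p under 0.05 in limma. Their median of -0.080 became 0.12 without MCK-PPARb replicate 2. Spry1, a growth factor signalling inhibitor that keeps satellite cells quiescent, was at 0.44 (adjusted p = 0.681). Fgfr4, a growth factor receptor of myoblasts, was at 0.64 (adjusted p = 0.710), with its other kept probe sets at 0.25 and -0.23. Cdh15, M-cadherin, read 1074 and 1213 against 1118 and 856 (-0.22 ± 0.28). Pax7 and Myf5, also genes of these cells, lay below the filter, as given above.

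Of the denervation-responsive genes, 4 of 11 on the array were kept and none passed in limma, where Chrna1 alone (1 of 4) reached an unadjusted p under 0.05. The list had 1 call, Chrna1, in the 7 alternatives in which that gene passed. The median of 0.26 over the 4 kept genes became -0.19 without MCK-PPARb replicate 1 and 0.73 without MCK-PPARb replicate 2. Over all 11 genes it was 0.59. Below the filter, Ncam1, also a satellite cell gene, read 296.5 and 259.5 against 537.5 and 677.8 (1.12). It was higher without overlap, as were Chrng and Chrnd, and Gap43 was lower without overlap (-1.52). Dach2 (1.10), Runx1 (0.59) and Ankrd1 (0.20) overlapped. Of all 12393 genes, 38.2% did not overlap, either way. Fbxo32, the ubiquitin ligase atrogin-1, read 4465 and 1913 against 6443 and 2293 (0.39 ± 0.54, adjusted p = 0.859), with replicate 1 the higher in both groups. Its other probe set was at 0.26. Of the other muscle transcription factors, none of 16 kept genes passed or reached an unadjusted p under 0.05 in limma, and their median was 0.065. It was 0.22 without non-transgenic replicate 1 and -0.10 without non-transgenic replicate 2. Stat3 was at 0.58 (adjusted p = 0.574) and Tbx15, a factor of glycolytic fibres, at 0.34 (adjusted p = 0.592). A second kept probe set was at 0.60 for Stat3 and 0.64 for Tbx15, and a Stat3 probe set below the filter was at -0.80.

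**Figure D4:**
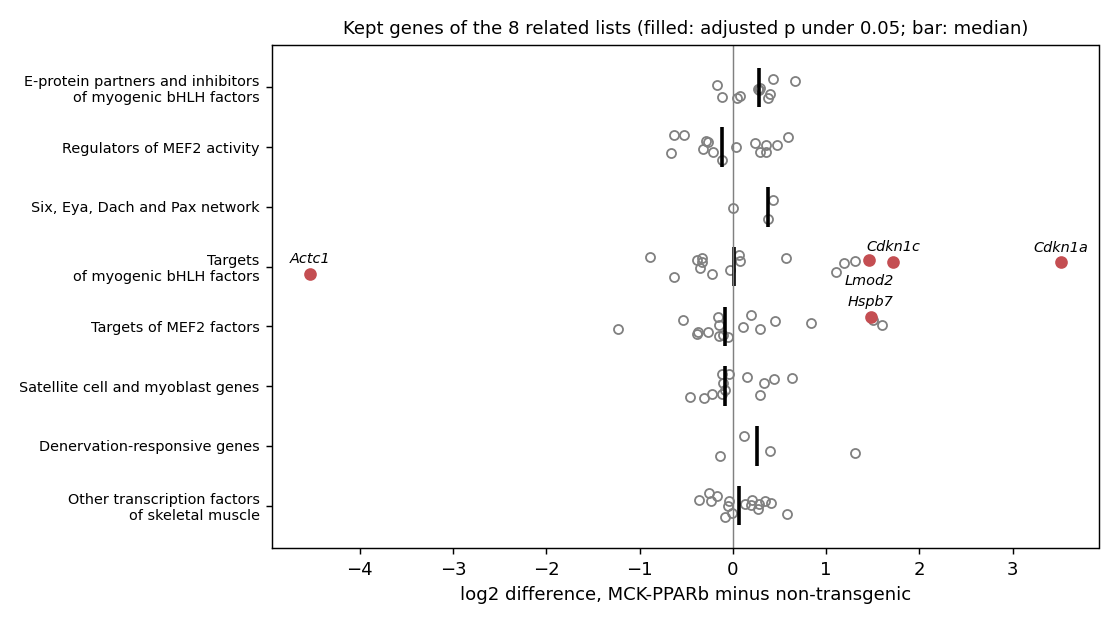
Log2 differences, MCK-PPARb minus non-transgenic, of the kept genes in each of the 8 related lists; each point is a gene, filled where its adjusted p was under 0.05, and the black bar is the list's median. The 5 filled points are Cdkn1a, Cdkn1c, Lmod2 and Actc1 among targets of helix-loop-helix factors and Hspb7 among targets of MEF2 factors, while list medians lie between -0.11 and 0.37.

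Markers of other cells that could add to these signals were set beside them, with signals summed over all markers of a list on the array, kept or not. For Schwann cells and nerve, 4 of 6 markers were kept, and the sums were 18731 to 20315 in non-transgenic and 31254 to 34856 in MCK-PPARb muscle. All 4 kept ones, Mbp (0.96), Pmp22 (0.67), Mal (0.63) and Sox10 (0.29), were higher without overlap, none passing the test. Of all genes above the filter, 42.9% did not overlap, either way. S100b (-0.94) and Nefl (-1.56, lower without overlap) lay below the filter. For adipocytes, 4 of 7 were kept. Adipoq (1.03), Retn (1.02) and Lipe (0.76) were higher without overlap, none passing, while Fabp4 was at -0.23. Pparg (-0.72), Lep (-0.80, lower without overlap) and Cidec (-0.47) lay below the filter, and the median over all 7 was -0.23. The adipocyte sums, 10461 to 14858 and 13317 to 13739, overlapped, and Fabp4 made up most of them. Leukocyte markers, 5 of 9 kept, summed to 9500 to 12836 and 8047 to 8136, but without Ighm to 7490 to 7803 and 7851 to 7922. The Ighm probe set was at -3.96 (adjusted p = 0.0154), and its other kept probe sets at 0.57 and -0.82. Of the other kept leukocyte markers, Adgre1 was at 0.83 and Cd68 at 0.12, Csf1r at -0.016 and Lyz2 at -0.25, none passing, and Ptprc, Cd3e, Cd79a and Itgam lay below the filter. Endothelial markers, 9 of 9 kept, summed to 16563 to 17266 and 15350 to 16253, and fibroblast markers, 9 of 9 kept, to 268091 to 310709 and 250313 to 302956. Smooth muscle and pericyte markers, 7 of 8 kept, summed to 114574 to 135787 and 118862 to 127482. Des, which is also on the list of helix-loop-helix targets, made up most of these sums. It read 105855 and 68249 on the control arrays and 92679 and 84915 on the transgenic arrays. Erythroid markers, 1 of 3 kept, summed to 978 to 1300 and 1060 to 1325. Kept Schwann cell markers and 3 of 4 kept adipocyte markers were higher in the group in which Myog and Mef2d were higher. The markers of these lists below the filter were lower there, as was the endothelial sum. The part of these cells in the differences of Myog and Mef2d was not tested.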

How the data were processed

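Expression in gastrocnemius muscle was measured on 4 Affymetrix arrays. The deposited values are 1 linear signal intensity per probe set and array; the submitters' processing notes list the tools MAS5 and GCOS without versions. Of 22690 probe sets, 64 controls were left out, 20380 had 1 gene symbol, 691 several and 1555 none here; symbols were updated through gene numbers (GRCm38.p6).

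Signals were log2-transformed as they stood, with no pseudocount. Probe sets whose mean log2 signal exceeded the median of all (a geometric mean of 444 units) were kept, 11313 in number, and compared with limma 3.58.1 in R 4.3.3 (lmFit, eBayes with an intensity trend, both directions, Benjamini-Hochberg over the kept probe sets, called under 0.05). The probe set of highest mean represents a gene. SE and 95% intervals are from that fit, with 5.38 prior and 2 residual degrees of freedom. The fit was tested on simulated data. The number of arrays limits the precision.

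The members, lists and tests were chosen with earlier results of these data known. Genes named in a list are those called, or otherwise the 2 of smallest p. Chrna1 (as a receptor gene), Chrng, Chrnd, Chrnb1, Chrne, Ckm, Ppargc1a and Cdh15 were named after their values were seen. So were Myh3, Myh8, Tnni1, Mybph, Tnnt2, Mymk, Casq2, Myl2, Jun, Nr4a1, Mb, Ncam1, Dach2, Runx1, Ankrd1, Gap43 and the marker genes. The alternatives tried were other normalizations, a pseudocount of 100, other filters and variance priors, a replicate block, each array left out, an adjusted p under 0.1, other choices of probe sets, and, chosen after seeing the data, dim signals raised to the filter level.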

Additional observations from a re-analysis of the deposited data

How the results depend on the processing

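Of the 9 genes, Myod1, Myf6 and the 3 MEF2 genes were tested and not called in all 16 alternatives, Myog in all but the filter at the 75th percentile, and Myf5, Eya1 and Pax7 were tested without a filter alone and not called there; adjusted p-values for Mef2d ran from 0.0663, with the replicate block, to 0.847. Replicate numbers are shared by the groups, but nothing says that they pair the animals. Same-numbered arrays deviated together (r = 0.276 across kept probe sets, with 2 pairs only), and with the block 12 list genes were called. That count was 8 with median centring, 9 with the filter at the 75th percentile, 2 without the intensity trend, 8 with robust eBayes, 9 at an adjusted p under 0.1 and 2 to 11 with an array left out. The sign of Mef2c turned with the mean of its probe sets (0.23), and with an array left out it ran from -0.13 to 0.042, and that of Myod1 from -0.50 to 0.46. The median of the 9 genes was 0.19 with median centring, which moved the median of all genes from 0.046 to -0.060, was 0.00 with dim signals raised to the filter level, and was 0.18 to 0.43 with an array left out. Genes without overlap numbered 2 when probe sets of a gene were averaged and 5 to 8 with an array left out, where 1 array against 2 overlaps less often by construction. The cause of the other changes was not tested.

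List medians moved by more than their spread as follows. With median centring they were 0.18 for E-protein partners, 0.27 for the Eya network, -0.19 for MEF2 targets and -0.19 for satellite cell genes. With quantile normalization they were 0.34 for the Eya network and 0.038 for MEF2 targets. The Eya network, with 3 kept genes, was at 0.34 with the pseudocount, 0.22 with the stricter filter, -0.0018 with plain probe sets only and 0.28 with the mean of probe sets. With the stricter filter E-protein partners were at 0.34 and denervation genes at 0.85, and with the mean of probe sets satellite cell genes were at 0.038. With an array left out the ranges were 0.18 to 0.29 for E-protein partners, -0.40 to 0.19 for MEF2 regulators, 0.095 to 0.38 for the Eya network, -0.23 to 0.28 for helix-loop-helix targets, -0.072 to 0.056 for MEF2 targets, -0.078 to 0.12 for satellite cell genes, -0.19 to 0.73 for denervation genes and -0.10 to 0.22 for other transcription factors.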
